A study of Mus musculus with 8 samples.

Results

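Hal, Uroc1, Amdhd1 and Ftcd encode the enzymes that break histidine down in liver. They were taken by symbol from the expression table, as 4 of its 25124 rows, and the set was chosen by the values of these libraries, with their changes between vehicle and GW4064 in both assays in view. Their changes with GW4064 are therefore given as a description: no p-value of theirs is printed, and the number of them past a threshold stands only beside the share of all genes past it.

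The study examined how GW4064, a synthetic agonist of the bile acid receptor FXR, changes transcription in mouse liver. RNA-seq measured ribosomal RNA-depleted total RNA of C57BL/6 wild-type mice that were fasted overnight and treated for 1 h with vehicle or 30 mg/kg GW4064, with 2 libraries per treatment. Each library holds RNA pooled from 2 mice, so a difference between pools can hide differences between animals. GRO-seq, which measures RNA made by engaged polymerases in isolated nuclei, had 1 library for each combination of genotype (labelled WT or FXR KO) and treatment, after the same fast, dose and time. The outline of the GRO-seq experiment gives n = 2 per group, and whether each library stands for 1 mouse or pools 2 is not stated. The methods describe the GRO-seq mice as Fxr-Flox mice and as liver-specific knockouts (Fxr-LKO) made by crossing them to Albumin-Cre mice. Cre driven by the albumin promoter acts in hepatocytes and leaves other liver cells with the gene. The WT animals of GRO-seq thus carry floxed alleles, unlike the RNA-seq animals. The vehicle is given as DMSO in the titles and as corn oil in the methods.

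Histidine is an amino acid that liver removes by a short, mostly irreversible route. Hal (histidine ammonia-lyase, histidase) releases ammonia and makes urocanate, Uroc1 (urocanase) hydrates urocanate to imidazolonepropionate, Amdhd1 (imidazolonepropionase) opens the ring to give formiminoglutamate, and Ftcd (formimidoyltransferase cyclodeaminase) passes the formimino group to tetrahydrofolate and leaves glutamate. The route therefore feeds both the glutamate pool and the folate one-carbon pool. In rat liver, histidase is known to rise with dietary protein, glucagon and glucocorticoids. Hal is also a known marker of periportal hepatocytes.

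Each row spans a whole gene in mm10. Hal lies on chromosome 10 from 93488768 to 93516761 on the plus strand, Amdhd1 on chromosome 10 from 93523338 to 93540033 on the minus strand, Ftcd on chromosome 10 from 76575648 to 76590338 on the plus strand and Uroc1 on chromosome 6 from 90333289 to 90364548 on the plus strand. Hal and Amdhd1 point towards each other with 6577 bases between their rows. The GENCODE model of Hal runs 2543 bases past the end of its row, which leaves 4034 bases to Amdhd1. The models have 20 exons for Hal, 20 for Uroc1, 9 for Amdhd1 and 14 for Ftcd. Exons make up 9.92% of the row of Hal, 11.1% of Uroc1, 14.5% of Amdhd1 and 13.2% of Ftcd, so RPKM (reads scaled to the length of the row and to the total of the library) averages mostly over introns here, and levels are per base of gene rather than per mRNA.

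The RefSeq promoters of all 4 genes are shown because 2 of the genes (Hal and Amdhd1) differed most with GW4064, and the start sites of the convergent pair lie 51265 bases apart. Each runs from 250 bases before the annotated start to 50 bases after it, on the strand of the gene in GRCm38.p6. The windows are chr10:93488518-93488817 for Hal, chr10:93539984-93540283 for Amdhd1, chr6:90333039-90333338 for Uroc1 and chr10:76575398-76575697 for Ftcd. Capitals mark matches to the letters described after the sequences.
Hal: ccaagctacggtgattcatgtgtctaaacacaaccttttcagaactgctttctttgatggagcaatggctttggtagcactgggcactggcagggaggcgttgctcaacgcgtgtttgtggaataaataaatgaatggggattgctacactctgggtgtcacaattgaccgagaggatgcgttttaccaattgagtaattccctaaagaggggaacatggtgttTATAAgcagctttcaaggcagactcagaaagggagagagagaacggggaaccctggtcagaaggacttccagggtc
Amdhd1: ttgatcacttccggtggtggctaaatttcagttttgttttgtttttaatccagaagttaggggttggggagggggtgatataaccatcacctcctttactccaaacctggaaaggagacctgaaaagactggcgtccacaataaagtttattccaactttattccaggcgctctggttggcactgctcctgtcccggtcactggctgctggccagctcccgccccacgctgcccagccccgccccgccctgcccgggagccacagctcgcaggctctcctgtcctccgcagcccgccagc
Uroc1: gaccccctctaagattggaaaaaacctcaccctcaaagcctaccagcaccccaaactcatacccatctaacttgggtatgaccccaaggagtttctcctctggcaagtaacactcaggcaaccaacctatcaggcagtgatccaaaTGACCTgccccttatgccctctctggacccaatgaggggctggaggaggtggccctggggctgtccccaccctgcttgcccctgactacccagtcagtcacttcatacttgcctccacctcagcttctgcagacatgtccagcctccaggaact
Ftcd: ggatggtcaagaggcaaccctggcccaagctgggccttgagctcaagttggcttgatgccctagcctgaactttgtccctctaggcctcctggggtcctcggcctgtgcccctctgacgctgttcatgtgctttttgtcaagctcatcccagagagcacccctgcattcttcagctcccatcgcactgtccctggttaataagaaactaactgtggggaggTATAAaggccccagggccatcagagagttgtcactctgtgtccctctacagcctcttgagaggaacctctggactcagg
The FXR element IR1 was searched for by exact letters only, as the hexamer AGGTCA followed after any 1 base by its reverse complement TGACCT. It was in none of the 4 windows on either strand, and only 0.00913% of 32851 RefSeq mouse promoters of this length hold it. With so rare a match, absence was likely beforehand and does not show that an IR1 with other letters is missing. The single hexamer, which is also part of IR1 and which 16.3% of promoters hold on either strand, occurred once, in Uroc1 on the minus strand from base 147. Neither TGACGTCA (CRE) nor the glucocorticoid element (AGAACA, any 3 bases, TGTTCT), held by 1.79% and 0.00913% of promoters on either strand, was in any of them. These searches were exact too, so the absence of such rare letters says as little. TATAA on the strand of the gene, 40 to 17 bases before the start, was found 26 bases before the start of Hal and 29 bases before that of Ftcd, and 3.51% of promoters hold it there. That motif was chosen after the sequences had been read. These matches are descriptions of the letters in the windows and bear on no factor.

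The libraries held 13924476 to 14047224 reads in RNA-seq and 14173723 and 10593329 reads in the WT vehicle and WT GW4064 libraries of GRO-seq, against 5141668 and 5069397 in the libraries labelled FXR KO (vehicle and GW4064), so values of the latter rest on fewer reads. The row of Nr1h4, the gene of FXR, was at 9.09 and 9.38 RPKM with vehicle and at 3.89 and 3.72 RPKM with GW4064 in RNA-seq. In GRO-seq it was at 15.1 and 4.23 RPKM in the WT libraries (vehicle and GW4064) and at 16.7 and 20.6 RPKM in those labelled FXR KO. This row covers the whole gene and cannot show a deletion of part of it, so it does not check the label. Abcb11, the bile salt export pump and an FXR target, was at 4.61 and 56.0 RPKM in WT against 1.20 and 1.58 RPKM in the libraries labelled FXR KO. Nr0b2 (SHP), another FXR target, was at 3.65 and 36.6 RPKM in WT (log2 ratio 3.33, 95% counting interval 3.10 to 3.57) and at 0.118 and 1.19 RPKM in the libraries labelled FXR KO, a log2 ratio of 3.34 (1.30 to 6.48) from only 2 and 20 reads. The checks thus differ. The ratio of Abcb11 was smaller in the libraries labelled FXR KO. That of Nr0b2 was close to the WT ratio but loosely fixed by its few reads, and with 0.1 RPKM added it was 2.57 against 3.29 in WT. Both genes had a lower level in the libraries labelled FXR KO. The paper also shows FXR protein levels in livers of both genotypes. By RT-qPCR it describes the expression of Nr0b2 as dependent on FXR. The 5 hepatocyte markers in the table summed to 260 to 295 RPKM in RNA-seq. In GRO-seq they summed to 422 and 425 RPKM in the WT libraries and to 729 and 720 RPKM in those labelled FXR KO. Their median log2 ratio of the library labelled FXR KO to WT was 0.04 with vehicle and 0.71 with GW4064. With vehicle the larger sum thus did not stem from a like rise of all 5. No marker of 8 liver cell type lists was at 0 in an RNA-seq library.

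The 4 genes were expressed at similar levels per base in vehicle-treated livers, and their order changed with GW4064. In RNA-seq of both vehicle libraries Ftcd was highest (14.8 and 13.9 RPKM), followed by Amdhd1 (9.46 and 9.73 RPKM), Hal (9.13 and 9.02 RPKM) and Uroc1 (6.99 and 6.48 RPKM). The gap between Amdhd1 and Hal was small, at a ratio of 1.04 and 1.08. In both GW4064 libraries Hal was highest, Amdhd1 and Ftcd followed with a ratio of 1.02 and 1.09 to each other, and Uroc1 remained lowest. In GRO-seq Ftcd was highest in the WT vehicle library and in both libraries labelled FXR KO. Hal was lowest in these 3 libraries and highest, by 1.79 times over Ftcd, in WT with GW4064.

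**Figure D1:**
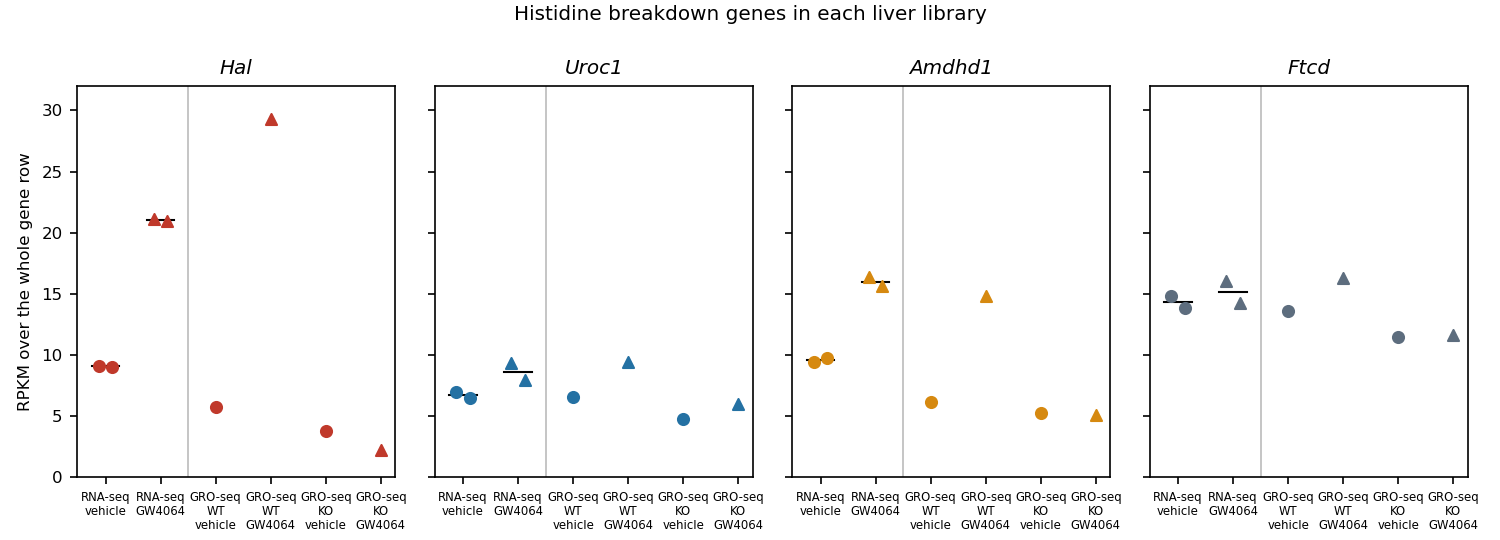
RPKM of Hal, Uroc1, Amdhd1 and Ftcd in each library, with circles for vehicle, triangles for GW4064 and bars for the mean of 2 RNA-seq libraries; GRO-seq groups are single libraries. Hal goes from 9.08 to 21.1 RPKM in RNA-seq and from 5.75 to 29.3 RPKM in WT GRO-seq, and is at 3.81 and 2.25 RPKM in the libraries labelled FXR KO.

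In RNA-seq, GW4064-treated livers had more RNA from Hal and Amdhd1 and a smaller difference for Uroc1, while the values of Ftcd overlapped. Hal and Amdhd1 are the convergent neighbours, and they encode the first and the third enzyme of the route. The vehicle libraries held Hal at 9.13 and 9.02 RPKM, and the GW4064 libraries at 21.1 and 21.0 RPKM. Both treated values lay 11.9 RPKM or more above both vehicle values, and the replicates of a group differed by at most 0.131 RPKM. Its means were 9.08 ± 0.0778 and 21.1 ± 0.0926 RPKM (SD, n = 2 libraries each), which gave a fitted log2 fold change of 1.21 (standard error 0.05, 95% interval 1.06 to 1.35).
Uroc1 stood at 6.99 and 6.48 RPKM in vehicle libraries and at 9.32 and 7.94 RPKM in GW4064 libraries, so the groups did not overlap, but the treated libraries differed by 1.38 RPKM while the groups were 0.951 RPKM apart at their nearest. The fitted log2 fold change was 0.35 (standard error 0.10, 95% interval 0.06 to 0.64).
For Amdhd1 the vehicle values were 9.46 and 9.73 RPKM and the GW4064 values 16.4 and 15.6 RPKM. The means were 9.60 ± 0.196 and 16.0 ± 0.512 RPKM, and the nearest values of the groups were 5.90 RPKM apart. The fitted log2 fold change was 0.73 (standard error 0.06, 95% interval 0.57 to 0.90).
For Ftcd they were 14.8 and 13.9 RPKM, then 16.0 and 14.3 RPKM. These values overlap between the groups, and the fitted change of 0.08 (standard error 0.09) had an interval of 0.893-fold to 1.25-fold.
Of the 4 genes, 2 were past an adjusted p under 0.05 with a higher value (limma across 11408 genes, where 2.13% were higher at that threshold), and none was lower, against 1.15% (3.28% of all genes passed in either direction). Both GW4064 values lay above both vehicle values in 3 of the 4, which is also true of 26.0% of all genes tested, and below them in none, against 28.1%. Because these values belong to the contrast that was in view when the genes were chosen, nothing is read from these counts. Leaving out any 1 of the 4 libraries (vehicle replicate 1 or 2, GW4064 replicate 1 or 2) left no gene of the table past the threshold in limma, where 1608 to 1970 genes still had an unadjusted p under 0.05. The fitted change was then 1.20 to 1.21 for Hal and 0.70 to 0.76 for Amdhd1. In such bulk samples, fewer cells of a type and less RNA per cell cannot be told apart.

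In GRO-seq of the libraries labelled WT, nascent RNA of Hal and Amdhd1 was more than 2-fold higher with GW4064, and that of Uroc1 and Ftcd was higher by less. There is 1 library per group, so no test was made, and the intervals cover counting error only. Hal went from 5.75 RPKM under vehicle to 29.3 RPKM under GW4064 (2282 and 8687 reads), which is 5.09-fold, or 2.35 on the log2 scale (95% counting interval 2.28 to 2.42).
Uroc1 was at 6.58 and 9.44 RPKM, a log2 ratio of 0.52 (0.45 to 0.59). Amdhd1 was at 6.14 and 14.9 RPKM, a log2 ratio of 1.27 (1.18 to 1.37). Ftcd was at 13.6 and 16.3 RPKM, a log2 ratio of 0.27 (0.19 to 0.34). The order by ratio was Hal, Amdhd1, Uroc1, Ftcd, as for the fitted changes in RNA-seq. Both contrasts were in view when the genes were chosen, so nothing is read from this order.
Of the 4 genes, 2 were at least 2-fold higher, against 2.56% of 10169 genes (a call needed 20 reads or more in 1 of both libraries), and none was 2-fold lower, against 1.61%. The median ratio of all genes was -0.09 on the log2 scale.
For each of the 4 genes the ratio in nascent RNA exceeded the fitted change in RNA-seq. Log2 ratios were more widely spread in GRO-seq over all genes too, with a 10th to 90th percentile of -0.53 to 0.46, against -0.28 to 0.29 in RNA-seq. The share of all genes with a larger ratio in nascent RNA was not counted. The log2 values were 2.35 and 1.21 for Hal, 1.27 and 0.73 for Amdhd1, 0.52 and 0.35 for Uroc1 and 0.27 and 0.08 for Ftcd (GRO-seq and RNA-seq).

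**Figure D2:**
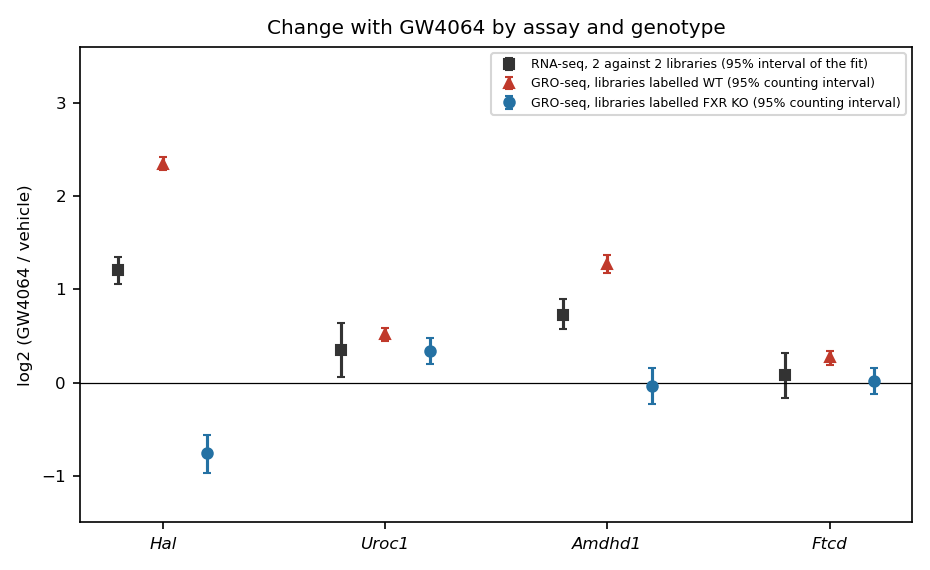
Log2 ratio of GW4064 to vehicle for the 4 genes. Squares are the RNA-seq fit with its 95% interval, triangles and circles are GRO-seq ratios of single libraries labelled WT and FXR KO with 95% counting intervals. Hal is at 1.21, 2.35 and -0.76, and Amdhd1 at 0.73, 1.27 and -0.04.

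In the libraries labelled FXR KO, nascent RNA of Hal was lower with GW4064, that of Uroc1 was higher, and the intervals of Amdhd1 and Ftcd included no change. Hal went from 3.81 RPKM under vehicle to 2.25 RPKM under GW4064 (549 and 319 reads), a log2 ratio of -0.76 (95% counting interval -0.97 to -0.56). Uroc1 was at 4.75 and 6.00 RPKM, a log2 ratio of 0.34 (0.20 to 0.48). Amdhd1 was at 5.24 and 5.10 RPKM, a log2 ratio of -0.04 (-0.23 to 0.16).
Ftcd had 866 reads in each library, at 11.5 and 11.6 RPKM, and a log2 ratio of 0.02 (-0.12 to 0.16). None of the 4 genes was 2-fold higher or lower, against 0.688% and 0.482% of all genes.
The WT ratio exceeded the ratio in the libraries labelled FXR KO by 3.11 on the log2 scale for Hal, 1.31 for Amdhd1, 0.24 for Ftcd and 0.18 for Uroc1. With 1 library per group these differences were not tested.
Among 227 genes that were at least 2-fold higher with GW4064 in WT, in rows of at least 300 bases and with at least 20 reads in a library labelled FXR KO, the median ratio in the libraries labelled FXR KO was 0.04, and 99 genes had a ratio below 0. Hal was the 12th lowest and Amdhd1 the 90th lowest of these 227.

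**Figure D3:**
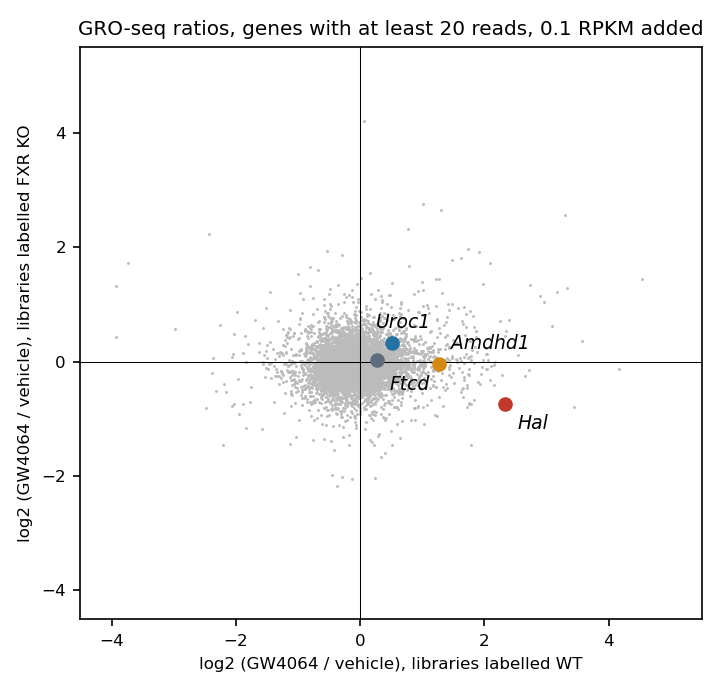
GRO-seq log2 ratio of GW4064 to vehicle, with 0.1 RPKM added, in the libraries labelled WT (horizontal) and FXR KO (vertical) for 9191 genes (grey) that had 20 reads or more in 1 library of each pair. Hal lies at 2.33 and -0.74 and Amdhd1 at 1.26 and -0.04, whereas Uroc1 and Ftcd lie within the cloud.

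With vehicle alone, all 4 genes were lower in the library labelled FXR KO than in the WT library. The log2 ratio was -0.59 for Hal (95% counting interval -0.73 to -0.46), -0.47 for Uroc1 (-0.59 to -0.35), -0.24 for Ftcd (-0.36 to -0.13) and -0.23 for Amdhd1 (-0.38 to -0.08), where the median of all genes was -0.07. The 10th to 90th percentile of all genes ran from -0.51 to 0.45, and only Hal lay outside it. None was 2-fold lower or higher, against 1.29% and 1.59% of all genes. With GW4064 the ratio was -3.70 for Hal (-3.87 to -3.54), a 13.0-fold lower level. It was -1.54 for Amdhd1 (-1.69 to -1.39), -0.65 for Uroc1 (-0.76 to -0.55) and -0.49 for Ftcd (-0.60 to -0.38). Here 2 of the 4 were 2-fold lower, against 3.43% of all genes, and none was 2-fold higher, against 2.0%. The contrasts with and without GW4064 use the same 4 libraries as the ratios within a genotype.

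Ratios between genes of one library do not depend on its depth. Hal relative to Ftcd was 0.617 and 0.650 in the vehicle libraries of RNA-seq and 1.32 and 1.47 with GW4064. In GRO-seq this ratio was 0.423 and 1.79 in WT (vehicle and GW4064) and 0.333 and 0.193 in the libraries labelled FXR KO. Hal thus moved against Ftcd in opposite directions in the libraries of the 2 genotypes. Amdhd1 relative to Ftcd was 0.452 and 0.910 in WT and 0.457 and 0.439 in the libraries labelled FXR KO. Uroc1 relative to Ftcd was 0.484 and 0.578 in WT and 0.415 and 0.516 in the libraries labelled FXR KO, so it was higher with GW4064 in both.

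None of the tested rows next to the 4 genes passed the threshold, the convergent pair itself set aside. Lta4h, a leukotriene A4 hydrolase gene whose row ends 3872 bases before Hal starts, had RNA-seq values of 1.61 and 1.63 RPKM (vehicle) and 1.52 and 1.48 RPKM (GW4064; log2 fold change -0.10, adjusted p = 0.365 from limma). Ccdc38 starts 599 bases from the start of Amdhd1 on the opposite strand and is nearly silent. It had 39 and 45 RNA-seq reads with vehicle and 74 and 66 with GW4064, below the filter at a mean of 0.5 RPKM. In WT GRO-seq it had 29 and 52 reads (log2 ratio 1.25, 95% counting interval 0.58 to 1.97).
On either side of Uroc1, the log2 change was 0.21 for Chst13 (adjusted p = 0.433) and -0.05 for Zxdc (adjusted p = 0.652). Beside Ftcd, Gm15343 had a change of 0.07 (adjusted p = 0.774), and Col6a2, a collagen VI gene, lay below the filter.
Gene rows nested within a longer row of the other strand had the same level as it, at a median of 1.03 times over 151 rows in vehicle replicate 1 of RNA-seq and 1.06 times over 136 rows in the WT vehicle library of GRO-seq. Counting thus did not separate the strands, and transcripts of Hal that extend beyond its end into Amdhd1, or the reverse, would add to the row they reach. Their number was not tested.

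**Figure D4:**
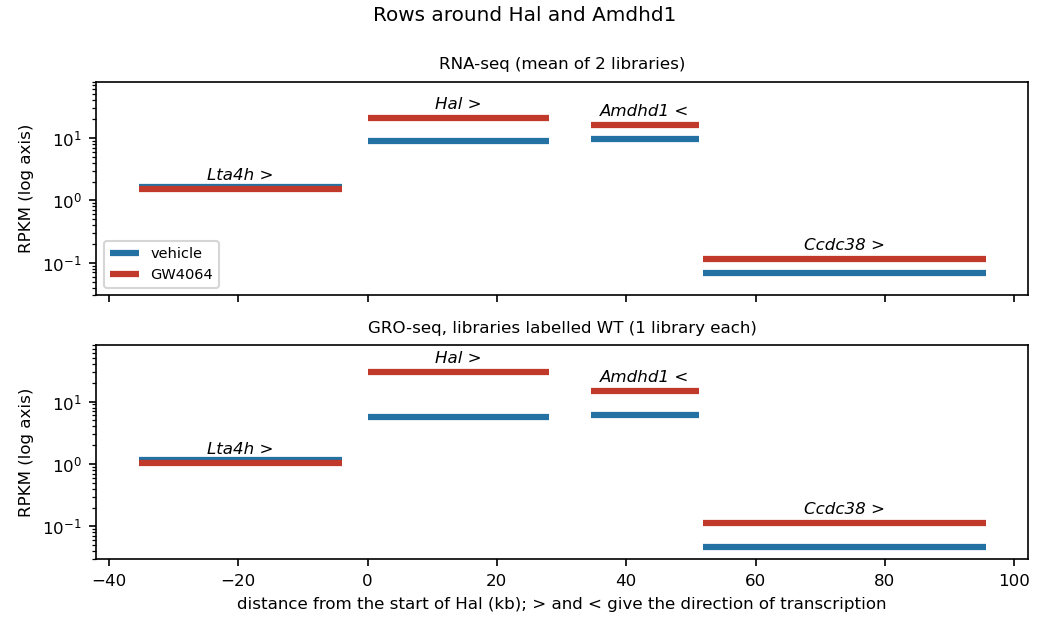
Levels of Lta4h, Hal, Amdhd1 and Ccdc38 along the locus, in RPKM on a log axis against the distance from the start of Hal, for vehicle (blue) and GW4064 (red) in RNA-seq means of 2 libraries and in single GRO-seq libraries labelled WT. Arrowheads give the direction of transcription. Hal and Amdhd1 are higher with GW4064 in both assays, and so is the nearly silent Ccdc38, from few reads (29 and 52 in GRO-seq). Lta4h is at 1.18 and 1.05 RPKM in GRO-seq.

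Most other genes that handle histidine did not pass the threshold in RNA-seq. Of 8 tested genes of 13 listed, 1 rose, none fell and 7 did not pass in limma, with a median log2 change of -0.03 (-0.00 over all genes), and limma-voom called 1 higher and 0 lower. The one that rose was Slc15a4, a lysosomal carrier of histidine and peptides, whose mean went from 4.26 to 7.71 RPKM (0.84 on the log2 scale, adjusted p = 0.0192). Its GRO-seq log2 ratio was 1.70 in the libraries labelled WT and 0.68 in those labelled FXR KO, above 0 in both genotypes, unlike Hal. Hdc, which makes histamine from histidine, was at -0.03 on the log2 scale (adjusted p = 0.859), and Hars, the histidyl-tRNA synthetase, at -0.03 (adjusted p = 0.906). Slc38a3, a glutamine and histidine carrier, was at -0.09 (adjusted p = 0.605).
Of 21 tested folate one-carbon genes, which take up the formimino group that Ftcd transfers, none passed the adjusted threshold in limma (3 were higher and 3 lower at an unadjusted p under 0.05), and the median was 0.06. Limma-voom on rebuilt reads called 2 higher and 0 lower. Aldh1l1, which oxidises formyl-tetrahydrofolate, was at 0.50 (adjusted p = 0.148), with GRO-seq log2 ratios of 1.12 in WT and 0.25 in the libraries labelled FXR KO. Mthfd1, a folate enzyme with cyclohydrolase activity, was at -0.37 (adjusted p = 0.157), with GRO-seq log2 ratios of -0.86 and -0.36.
Among 42 genes that break down other amino acids, 2 rose, 2 fell and 38 did not pass, with a median of 0.03 (9 were higher and 11 lower at an unadjusted p under 0.05, and limma-voom called 3 higher and 5 lower). Aass, which starts lysine breakdown, rose from 8.09 to 25.4 RPKM (1.64, adjusted p = 0.0156), and Aldh4a1, which turns the product of proline into glutamate, rose as well (0.53, adjusted p = 0.0344). Cdo1, the cysteine dioxygenase gene, fell (-0.80, adjusted p = 0.0429), as did Tdo2, the tryptophan dioxygenase gene (-0.62, adjusted p = 0.0462). The GRO-seq log2 ratio of Aass was 2.27 in WT and 0.72 in the libraries labelled FXR KO, and that of Aldh4a1 was 0.75 (95% counting interval 0.66 to 0.84) and 0.58 (0.41 to 0.74). For Cdo1 it was -1.27 and -0.20, and for Tdo2 -1.01 and -0.25. Both decreases were lost with a filter at a mean of 0.1 RPKM or with eBayes at trend=FALSE. Under either setting the count of higher genes over all pathway lists went from 4 to 3.
Of 19 glucagon and glucocorticoid response genes, 1 rose and none fell in limma, with a median of 0.05. At an unadjusted p under 0.05, 5 were higher and 4 lower, and limma-voom called 4 higher and 4 lower, so the count of 0 lower depends on the tool. It was G6pc, the glucose-6-phosphatase gene (0.57, adjusted p = 0.0429), whose GRO-seq log2 ratio was 1.85 in WT and 0.25 in the libraries labelled FXR KO. In GRO-seq the median log2 ratio of this list was 0.54 in WT and 0.16 in the libraries labelled FXR KO, against -0.09 and -0.02 over all genes. None of the 6 pathway genes named as risen or fallen passed the threshold once any 1 RNA-seq library was left out.

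Because Hal marks periportal hepatocytes, the levels of other zonal markers are given beside it. The 11 other periportal markers summed to 195 to 196 RPKM in vehicle and 217 to 231 RPKM in GW4064 libraries of RNA-seq, where none of the 11 passed the threshold in limma (5 were higher and 1 lower at an unadjusted p under 0.05, and limma-voom called 2 higher and 0 lower). In GRO-seq their sum was 185 and 328 RPKM in WT (vehicle and GW4064) and 260 and 221 RPKM in the libraries labelled FXR KO. The 10 pericentral markers summed to 105 to 107 RPKM with vehicle and 90.3 to 90.9 RPKM with GW4064, and 1 of the 9 tested, the glutamate carrier gene Slc1a2, fell. The part of these shifts in the values of Hal was not tested. Kupffer cell markers summed to 35.7 to 39.3 RPKM with vehicle and 38.0 to 39.8 RPKM with GW4064 in RNA-seq.

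Profiles over the 8 libraries were compared with those of 8990 other genes, as the root mean square distance of log2 values after subtracting the mean of each assay. Nearest to Hal were Etnk2, an ethanolamine kinase gene (distance 0.21), Steap3, a metalloreductase gene (0.21), and C4a (0.27), whose near-identical copy C4b makes its reads uncertain. Amdhd1 was the 91st nearest to Hal (0.57). Nearest to Amdhd1 were Stat5b (0.06), Pnp (0.07; it has a near-identical copy) and Cdc42ep1 (0.08). Nearest to Uroc1 were Ptms (0.05), Tecpr2 (0.05) and Rab9 (0.06), and nearest to Ftcd were Brwd1 (0.04), B3gat3 (0.04) and Cyyr1 (0.05). Distances shrink for genes that change little, so values for Uroc1 and Ftcd are small for many genes.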

How the data were processed

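The authors mapped RNA-seq and GRO-seq reads with STAR 2.7.3a to mm10 (the version is from the submitters' processing notes). HOMER gave the gene values, and the deposited values are RPKM per gene row, introns included. The HOMER version and strand setting are not given in the sources used here. Library totals were rebuilt from the steps between RPKM values, and 100% of testable values gave whole reads within 0.15.

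Log2(RPKM + 0.1) of 11408 genes averaging 0.5 RPKM or more was fitted with limma 3.58.1 (statmod 1.5.0 loaded, R 4.3.3; treatment as the only term, eBayes with trend) and adjusted by Benjamini-Hochberg at 0.05. The fit was also run on simulated counts as a check of the code. That run does not show how many calls in these data are false, and no result here rests on it. GRO-seq ratios are given with exact binomial 95% counting intervals from rebuilt reads. Python 3.11.15 with scipy 1.17.1 and matplotlib 3.10.9 was used for the rest. These intervals cover counting error only and take each read as independent. Reads carry no molecular identifiers, so the intervals may be too narrow where copies of the same molecule were counted. Replicates are pools of different mice.

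Members and lists were chosen with earlier results of these data known. Named genes are the 4 members, their nearest rows within 100 kb, up to 4 genes past the threshold per pathway list, 5 partner genes, the 3 genes nearest in profile to each member, and 3 checks (Nr1h4, Abcb11 and Nr0b2). Alb was looked up too and stands only within the hepatocyte markers. Settings tried were pseudocounts of 0.01 and 1, filters at 0.1 and 1 RPKM or none, quantile normalization, median centring, eBayes options, the replicate number as a block, leaving out each library, and limma-voom on rebuilt reads; rows of at least 300 bases were chosen after seeing the data.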

Additional observations from a re-analysis of the deposited data

Results flagged for a closer look

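Nascent RNA of Hal was higher with GW4064 in the libraries labelled WT (log2 ratio 2.35) and lower in those labelled FXR KO (log2 ratio -0.76), so the effect pointed in opposite directions in the 2 genotypes. For Amdhd1 the log2 ratio was 1.27 in WT and -0.04 in the libraries labelled FXR KO, where the counting interval of -0.23 to 0.16 includes no change, so no opposite direction is shown. Each value compares 1 library with 1 library, and the difference between genotypes was not tested.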

How the results depend on the processing

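The fitted RNA-seq changes of Hal and Amdhd1 kept their direction under every alternative. Hal ranged from 1.11 to 1.21 over 13 settings and from 1.20 to 1.21 when each library was left out, Amdhd1 from 0.63 to 0.74 and from 0.70 to 0.76, and Uroc1 from 0.29 to 0.35 and from 0.24 to 0.46. Ftcd was -0.05 with quantile normalization and ranged from -0.00 to 0.16 without 1 library. The side of the threshold on which these 4 genes fell is a description. With the replicate number as a block, where none of 11408 genes passed, Hal (1.21) and Amdhd1 (0.73) were no longer past the threshold. Neither was Amdhd1 with no filter (0.73), where 82 of 20188 genes were higher and 46 lower. Uroc1 (0.35), which was not past the threshold in the main fit, was past it only in limma-voom restricted to rows of 300 bases or more. In that setting 641 of 10830 genes were higher and 636 lower.
Counts of genes higher and lower over the table, 243 and 131, were 82 and 46 with no filter, 0 and 0 with the replicate block (2327 genes at an unadjusted p under 0.05 in limma), 522 and 481 with limma-voom on rebuilt reads, 641 and 636 with limma-voom restricted to rows of 300 bases or more, 424 and 310 with limma on those rows, and 0 without any 1 library. Same-numbered RNA-seq libraries did not deviate together (correlation -0.02 across 11408 genes), so the numbers do not pair them.
In the pathway lists, 4 genes higher and 2 lower became 2 and 0 with no filter, 0 and 0 with the replicate block or without any 1 library, 10 and 9 with limma-voom, 13 and 14 with limma-voom on those longer rows, and 8 and 6 with limma on them. The lower count was 4 with a filter at 1 RPKM or robust eBayes, 5 with quantile normalization, and 0 with a filter at 0.1 RPKM or eBayes without trend. The higher count was 3 with that filter at 0.1 RPKM and with eBayes without trend.
Of the GRO-seq log2 ratios in WT with 0.1 RPKM added (Hal 2.33, Amdhd1 1.26, Uroc1 0.51, Ftcd 0.26), an added 1 RPKM gave 2.17 for Hal and 1.15 for Amdhd1. Median centring gave 2.42 for Hal, 0.61 for Uroc1 and 0.36 for Ftcd. For the library labelled FXR KO over WT with GW4064, an added 1 RPKM gave -3.22 for Hal and -1.38 for Amdhd1. All other GRO-seq values stayed within their counting intervals. The cause of these shifts was not tested. Depth limits the libraries labelled FXR KO most, where Hal rests on 549 and 319 reads.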

Other observations

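In vehicle livers the ratio of the RNA-seq level to the WT GRO-seq level was 1.58 for Hal, 1.56 for Amdhd1, 1.06 for Ftcd and 1.02 for Uroc1, beside a median of 1.33 over 9992 genes averaging 0.5 RPKM or more in both assays. With GW4064 the ratio was 0.719 for Hal, 1.08 for Amdhd1, 0.929 for Ftcd and 0.914 for Uroc1, beside a median of 1.41. The assays used different mouse lines and library methods. Summed over the 4 genes, the level was 39.1 to 40.4 RPKM with vehicle and 58.9 to 62.9 RPKM with GW4064 in RNA-seq, and Hal made up 22.6% to 23.1% and 33.6% to 35.7% of it. In GRO-seq the sum was 32.1 and 69.9 RPKM in WT and 25.3 and 25.0 RPKM in the libraries labelled FXR KO (vehicle and GW4064), with Hal at 17.9%, 41.9%, 15.1% and 9.0% of it.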
